A study of Mus musculus with 6 samples.

Results

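The 10 genes described here encode the subunits of hypoxia-inducible factor (HIF) and the enzymes that sense oxygen for it, and they were followed in hearts lacking filamin C. They were chosen by name, as the HIF alpha subunit genes *Hif1a*, *Epas1* and *Hif3a*, the beta subunit genes *Arnt* and *Arnt2*, the prolyl hydroxylase genes *Egln1*, *Egln2* and *Egln3*, the ubiquitin ligase subunit gene *Vhl* and the asparaginyl hydroxylase gene *Hif1an*. All 10 passed the filter on low counts and are among the 16048 genes tested. The mutant hearts were *Flnc*gKO, from C57BL/6 mouse embryos at embryonic day (E) 9.5 in which a floxed *Flnc* allele was deleted by *Sox2*Cre, a Cre active in the epiblast and so in the whole embryo. They were compared with hearts of littermates, labelled control with no *Flnc* genotype given. Each group had 3 RNA-seq libraries from polyadenylated RNA of whole hearts (the methods of the study name hearts or isolated ventricles), and the number of hearts in a library is not stated. Since nothing says that libraries came from separate litters, p-values measure the spread between these samples, which may be partly technical.

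HIF is a pair of an alpha and a beta subunit that binds DNA and switches on genes for glucose uptake, vessel growth and oxygen supply. With oxygen present, the prolyl hydroxylases mark the alpha subunit, the VHL protein binds the marked subunit and it is destroyed. The asparaginyl hydroxylase encoded by *Hif1an* blocks the coactivators of what remains. HIF is regulated mainly at the protein level, which RNA does not show. HIF in turn induces the RNA of *Egln1*, *Egln3* and *Hif3a*, whose products restrain it, so these are called feedback genes below. Embryos need this system for normal heart and vessel development.

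The DNA core that HIF binds is written ACGTG, and the 250 bases before the RefSeq gene start (GRCm38.p6) were searched for these 5 letters on both strands. RefSeq windows were at hand for 9 of the 10 genes, all but *Epas1*, and 4 of the 9 held a match, against 18.5% of all genes with a window (4998 of 27025) and 16.6% of all 32851 windows. The matches are shown with 10 bases on either side, on the strand of the gene, with the core in capitals, to show which of the genes carry these letters beside their start.
Egln1, chr8:124949308-124949332, minus strand: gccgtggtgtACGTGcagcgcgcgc
Egln3, chr12:54204089-54204113, minus strand: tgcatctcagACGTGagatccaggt
Hif1a, chr12:73907723-73907747, plus strand: acagacaagCACGTGagcggggcag
Hif1a, chr12:73907787-73907811, plus strand: gctgagagcaACGTGggctggggtg
Egln2, chr7:27166836-27166860, minus strand: cctcctgtcaACGTGcggttcgcgc
The first *Hif1a* match reads CACGTG, which holds the core on both strands. The match in *Egln1* starts 68 bases before the RefSeq start and that in *Egln3* 229 bases before it. The RefSeq start of *Egln1* lies 70 bases downstream of the GENCODE start used for the counts, so its match lies just inside the GENCODE transcript. The window of *Hif1a* lies 6492 bases inside the GENCODE gene, beside the first exon of the transcript Hif1a-201 and not that of Hif1a-202. *Hif3a*, the other feedback gene, held none in its window, nor did *Arnt*, *Arnt2*, *Vhl* and *Hif1an*. Of 29 other HIF target genes with a window (a list given below), 16 held the core (55.2%), as did 6 of 20 genes for HIF regulators. A match is a run of letters and does not show that HIF binds there.

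The whole upstream window of *Egln3* (chr12:54203875-54204124, minus strand, 5′ to 3′) is shown with the core in capitals, because it belongs to the member with the largest difference between the groups.
Egln3: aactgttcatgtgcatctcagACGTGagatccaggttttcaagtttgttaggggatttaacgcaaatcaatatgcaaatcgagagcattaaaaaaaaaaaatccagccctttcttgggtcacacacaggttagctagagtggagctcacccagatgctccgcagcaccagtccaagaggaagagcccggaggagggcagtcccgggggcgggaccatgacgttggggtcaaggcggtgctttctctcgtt

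The total of estimated counts lay between 19208859 and 23123255 in the 6 libraries, with 15579 to 16146 genes at 10 counts or more. Levels are given in CPM (a gene's share of the library's counts, scaled by TMM for RNA composition). *Flnc*, the targeted gene, was at 127, 111 and 240 CPM in the 3 *Flnc*gKO libraries, against 844, 623 and 746 CPM in the control libraries. Its log2 fold change was -2.21 (SE 0.35, edgeR adjusted p = 0.0655, DESeq2 adjusted p = 9.9e-07). EdgeR thus did not call the targeted gene, while DESeq2 called it lower in *Flnc*gKO. Both libraries numbered 3 stood apart from the others by RNA of trophoblast, the placental lineage next to the embryo. The summed level of 18 trophoblast markers, a list made after this was seen, was 120, 17.4 and 1409 CPM in *Flnc*gKO replicates 1, 2 and 3, and 35.5, 7.19 and 840.5 CPM in control replicates 1, 2 and 3. Cardiomyocyte markers (10 genes, none at 0) summed to between 26103 and 30073 CPM in *Flnc*gKO libraries and between 27782 and 32325 CPM in control libraries. Opposite differences can cancel in this sum. *Myh6* was lower (log2 fold change -0.43) and *Myh7* higher (0.35) in *Flnc*gKO, each with no overlap between the groups. *Tnnt2* was also lower with no overlap (log2 fold change -0.17), so that 3 of the 10 did not overlap, against 29.7% of all genes. Of the 10 cardiomyocyte markers, 8 had a log2 fold change below 0 and 2 above, and edgeR called 0 (1.31% of all genes). DESeq2 called 1 higher, *Myh7*, and 1 lower, *Myh6*, against 8.49% of all genes. The summed level of 4 Y-linked genes was 80.7, 3.88 and 4.28 CPM in *Flnc*gKO libraries and between 117 and 140 CPM in control libraries, so that the sex of the embryos partly followed the group. In whole tissue, fewer cells of a type and less RNA per cell cannot be told apart.

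All 3 feedback genes were higher in *Flnc*gKO than in control hearts. *Egln3* was 6.26-fold, *Egln1* 2.19-fold and *Hif3a* 1.501-fold higher, and for each of them the 3 *Flnc*gKO libraries lay above the 3 control libraries. *Hif1a*, which encodes the best-known alpha subunit, was 1.28-fold higher in control hearts. *Epas1* followed the 2 libraries with trophoblast RNA. In edgeR's quasi-likelihood test, 0 of the 10 passed a Benjamini-Hochberg adjusted p of 0.05, where 1.31% of all genes passed. The targeted gene *Flnc* did not pass this test either. The unadjusted p was under 0.05 for 6 of the 10, against 22.2% of all genes. DESeq2 on the same counts called 4 of the 10 (*Egln1*, *Egln3* and *Hif3a* higher and *Hif1a* lower in *Flnc*gKO), against 8.49% of all genes.

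*Egln3* encodes PHD3, the prolyl hydroxylase whose RNA responds most to low oxygen in many cells. It was at 56.6, 78.7 and 30.2 CPM in the *Flnc*gKO libraries (replicates 1, 2 and 3), against 8.004, 8.11 and 10.3 CPM in the control libraries. The lowest *Flnc*gKO library, replicate 3, was still well above the highest control library, but the *Flnc*gKO libraries spread widely. The means were 55.2 ± 24.2 CPM in *Flnc*gKO and 8.82 ± 1.32 CPM in control hearts (SD, n = 3 each). The log2 fold change was 2.65 (SE 0.40, edgeR adjusted p = 0.0578, DESeq2 adjusted p = 3.56e-08). The gene (GRCm38, chr12:54178981-54203860, minus strand) has 1 transcript in the annotation, so this is its whole signal.

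*Egln1* encodes PHD2, the main oxygen sensor for HIF in most cells, and mice without it die before birth with heart and placental defects. It was at 255, 356 and 181 CPM in *Flnc*gKO libraries and at 119, 123 and 119 CPM in control libraries. The control libraries hardly varied, and the *Flnc*gKO libraries took the same order as for *Egln3*, with replicate 2 highest and replicate 3 lowest. The means were 264 ± 88.3 CPM in *Flnc*gKO and 121 ± 2.48 CPM in control hearts (SD, n = 3 each), a log2 fold change of 1.13 (SE 0.25, edgeR adjusted p = 0.0922, DESeq2 adjusted p = 0.00182). *Egln1* (chr8:124908587-124949324, minus strand) also has 1 annotated transcript.

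*Hif3a* encodes an alpha subunit with forms that oppose HIF-1. Its level was 32.9, 44.3 and 39.2 CPM in *Flnc*gKO libraries, against 23.8, 26.8 and 26.9 CPM in control libraries. Here *Flnc*gKO replicate 1 was the lowest of its group, unlike the 2 hydroxylase genes. The log2 fold change was 0.59 (SE 0.11, edgeR adjusted p = 0.0563, DESeq2 adjusted p = 0.000844). The transcript Hif3a-202 carried most of the RNA of the gene (chr7:17031507-17062427, minus strand), at 8.76, 12.1 and 10.1 TPM (the transcript level per length, on a scale with the same total in each library) in *Flnc*gKO libraries and 6.43, 7.04 and 7.01 TPM in control libraries. The transcript Hif3a-201 was at 0.36 to 1.11 TPM in *Flnc*gKO and 0.47 to 0.57 TPM in control libraries, which overlap.

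*Hif1a* encodes HIF-1 alpha, the subunit that most cells use. It was at 299, 299 and 362 CPM in *Flnc*gKO libraries and at 430, 422 and 380 CPM in control libraries. All 3 *Flnc*gKO libraries were below all 3 control libraries, with the 2 replicates 3 closest to each other. The means were 320 ± 36.8 CPM in *Flnc*gKO and 410.5 ± 26.8 CPM in control hearts (SD, n = 3 each), a log2 fold change of -0.36 (SE 0.089, edgeR adjusted p = 0.0840, DESeq2 adjusted p = 0.00203). *Hif1a* (chr12:73901375-73947530, plus strand) has 2 main transcripts that begin at different first exons. Hif1a-202, which begins at the upstream exon (position 73901375), was at 32.5, 29.7 and 37.7 TPM in *Flnc*gKO, against 46.3, 52.8 and 52.9 TPM in control libraries. Hif1a-201, which begins at position 73907904 and made up most of the RNA, was at 104.5, 107 and 129 TPM in *Flnc*gKO and 157, 141 and 117 TPM in control libraries. The groups did not overlap for the first and did for the second. A short form, Hif1a-203, was rare but higher in *Flnc*gKO libraries, at 3.93, 3.33 and 1.73 TPM, against 1.43, 0.518 and 0.775 TPM in control libraries. *Hif1a* shares 330 exon bases with the antisense gene *Gm15283*, and whether the counting used strand is not given in the sources used here. These transcript values are estimates that divide shared reads, and they were not tested.

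*Epas1* (chr17:86753700-86833410, plus strand) encodes HIF-2 alpha, an alpha subunit known from endothelium and trophoblast. It was at 33.7, 34.7 and 126 CPM in *Flnc*gKO replicates 1, 2 and 3, and at 24.2, 25.3 and 80.8 CPM in control replicates 1, 2 and 3. In each group the library numbered 3 was more than 3 times each of the others, and the groups overlapped. The log2 fold change was 0.57 (SE 0.84, edgeR adjusted p = 0.746, DESeq2 adjusted p = 0.814). These same libraries held the trophoblast RNA described above. Of the 15 markers that passed the filter, edgeR called 0 (1.31% of all genes) and DESeq2 called 1, *Ascl2* (8.49%). *Prl3d1*, which encodes a placental lactogen, was at 19.5, 1.10 and 270 CPM in *Flnc*gKO and 4.99, 0.579 and 137 CPM in control libraries. *Ascl2* did not split by replicate number, at 1.43, 2.56 and 1.62 CPM in *Flnc*gKO and 0.412, 0.0483 and 0.290 CPM in control libraries. The part of trophoblast RNA in the level of *Epas1* was not tested. With neither library numbered 3, a fit chosen after seeing the data, the log2 fold change was 0.47 (edgeR adjusted p = 0.0205, with 2 libraries a group). It was -0.50 with a covariate from the Y-linked genes and -0.35 without *Flnc*gKO replicate 3, a fit that keeps control replicate 3. Markers of endothelium, 10 genes, summed to between 1024 and 1237 CPM in *Flnc*gKO and between 916 and 1094 CPM in control libraries. EdgeR called 1 of the 10, *Emcn*, higher in *Flnc*gKO, against 1.31% of all genes called. The endothelial markers went both ways, with 7 log2 fold changes above 0 and 3 below. DESeq2 called 4 of them higher and 2 lower, against 8.49% of all genes. The plot of *Epas1* against trophoblast RNA shows the 2 libraries apart from the 4 others.

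**Figure D1:**
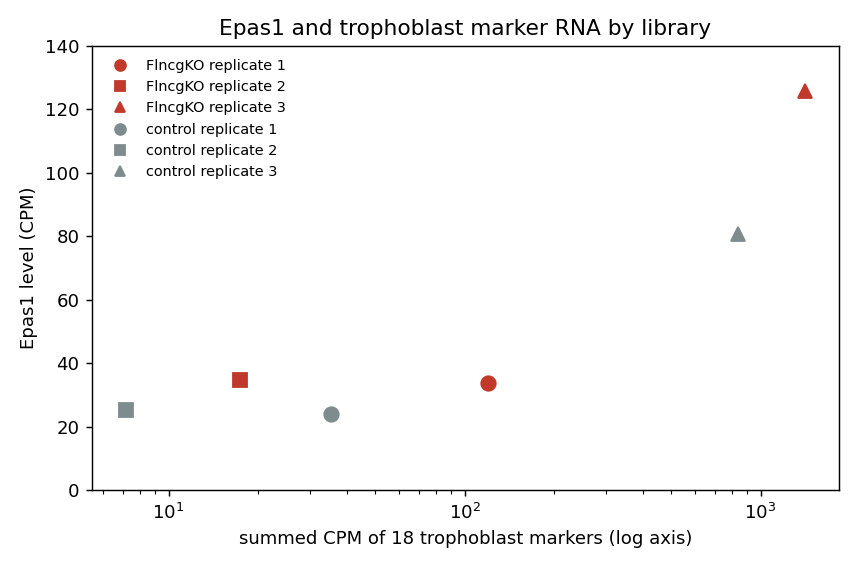
*Epas1* level in CPM (y axis) against the summed CPM of 18 trophoblast markers (x axis, log scale), 1 point for each of the 3 *Flnc*gKO and 3 control libraries. Replicate 3 lies at 126 CPM in *Flnc*gKO and at 80.8 CPM in control, and the 4 other libraries lie between 24.2 and 34.7 CPM.

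*Arnt* (chr3:95434388-95497240, plus strand) encodes the beta subunit that all HIF alpha subunits share. It was the least variable member, at 70.6, 71.6 and 72.9 CPM in *Flnc*gKO and 68.9, 68.8 and 68.7 CPM in control libraries. The groups did not overlap, yet the difference was 0.06 on the log2 scale (SE 0.048, edgeR adjusted p = 0.510). *Arnt2* (chr7:84246278-84410176, minus strand), which encodes a beta subunit best known from the nervous system, was at 5.72, 6.57 and 6.26 CPM in *Flnc*gKO and 8.92, 8.69 and 8.12 CPM in control libraries. The log2 fold change of *Arnt2* was -0.47 (SE 0.12, edgeR adjusted p = 0.0851, DESeq2 adjusted p = 0.0874). Neural markers, 7 genes of which *Neurog2* was at 0 in all libraries and 3 passed the filter, summed to 6.53, 3.66 and 8.03 CPM in *Flnc*gKO and 10.52, 13.2 and 9.32 CPM in control libraries. Their part in the difference of *Arnt2* was not tested.

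The remaining members are the other sensors and *Vhl*. *Egln2* (chr7:27158658-27166802, minus strand), which encodes PHD1, was at 48.2, 45.8 and 48.3 CPM in *Flnc*gKO and 50.6, 49.4 and 49.6 CPM in control libraries (log2 fold change -0.07, SE 0.051, edgeR adjusted p = 0.449). *Hif1an* (chr19:44562850-44576274, plus strand) was at 109.95, 101 and 113 CPM in *Flnc*gKO and 117, 125 and 114.5 CPM in control libraries (log2 fold change -0.14, SE 0.064, edgeR adjusted p = 0.247). Both lay lower in *Flnc*gKO with no overlap. *Vhl* (chr6:113623959-113631633, plus strand), which encodes the recognition subunit of the ligase that destroys HIF alpha, was at 40.6, 46.6 and 30.8 CPM in *Flnc*gKO and 32.5, 31.1 and 28.5 CPM in control libraries. The groups overlapped in *Vhl* through *Flnc*gKO replicate 3, and the log2 fold change was 0.36 (SE 0.15, edgeR adjusted p = 0.218).

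**Figure D2:**
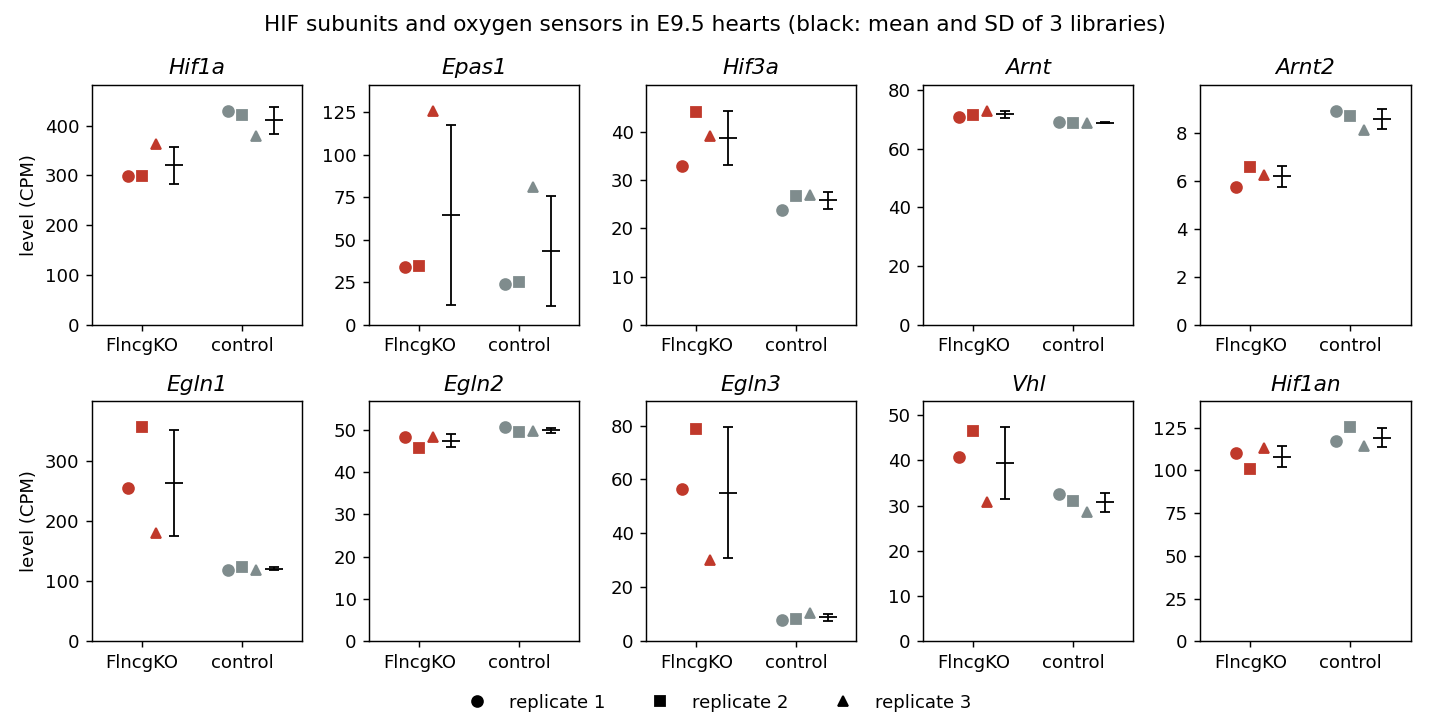
Level in CPM (y axes, each from 0) of the 10 genes in the 3 *Flnc*gKO and 3 control libraries, with the mean and SD of each group in black. *Egln1* lies between 181 and 356 CPM in *Flnc*gKO and between 119 and 123 CPM in control libraries, while the libraries of *Epas1* split by replicate number.

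Counted by direction, 8 of the 10 members did not overlap between the groups, against 29.7% of all genes. Of these, *Egln1*, *Egln3*, *Hif3a* and *Arnt* were higher in *Flnc*gKO and *Hif1a*, *Arnt2*, *Egln2* and *Hif1an* were lower. All 3 feedback genes were higher with no overlap, against 15.7% of all genes in that direction, and 6 of the 10 had a log2 fold change above 0, against 51.6% of all genes. The median log2 fold change was 1.13 for the feedback genes and -0.07 for the 7 other members, a difference of 1.20, against a median of 0.01 for all genes. Per library, the median of the feedback genes minus that of the others, each relative to the control mean, was 1.19, 1.69 and 0.65 in *Flnc*gKO and -0.14, 0.01 and 0.12 in control libraries. It was lowest in *Flnc*gKO replicate 3, and no p is given for it, because the grouping was made with earlier results of these data known.

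**Figure D3:**
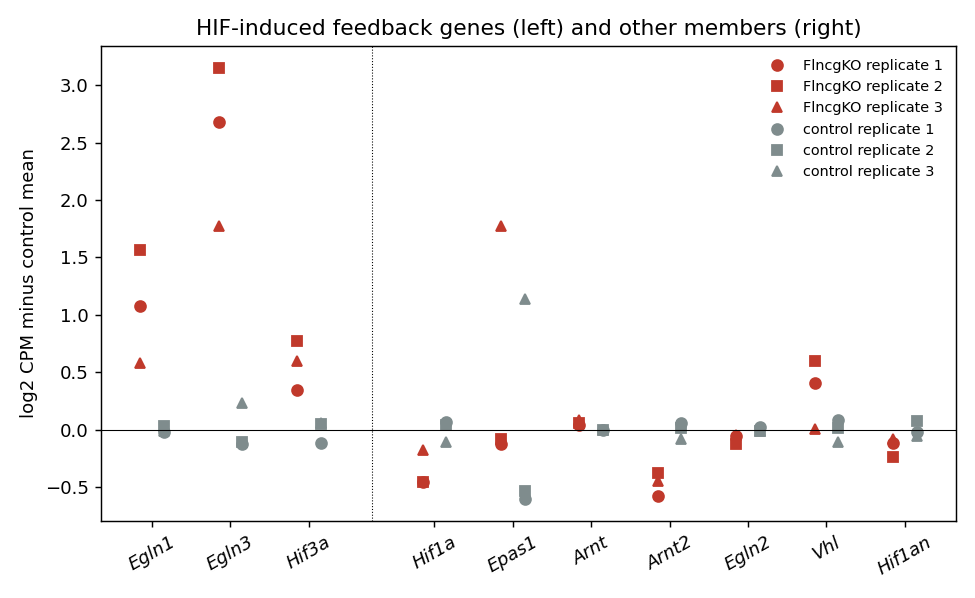
Log2 CPM of each gene minus its mean in control libraries (y axis), 1 point per library, with the feedback genes left and the other members right. *Egln3* reaches 3.15 in *Flnc*gKO replicate 2 and *Egln1* 1.56, while *Arnt*, *Egln2* and *Hif1an* stay close to 0 in all 6 libraries.

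Within *Flnc*gKO, the libraries took the order replicate 2, 1, 3 from high to low for *Egln1* and *Egln3* but not for *Hif3a*. Of genes higher in *Flnc*gKO with no overlap, 36.7% took that order (923 of 2512). Among the *Flnc*gKO libraries, replicate 3 was nearest to control for *Egln1*, *Egln3*, *Hif1a*, *Vhl*, *Hif1an* and, by a small margin, *Egln2*. Without it, edgeR called 5 members at 0.05, namely *Egln1* (adjusted p = 0.00765), *Egln3* (0.0012), *Hif3a* (0.0438), *Hif1a* (0.00674) and *Vhl* (0.0152), in a fit that called 7.79% of all genes. With 10 counts required in every library *Egln3* (adjusted p = 0.0489) and *Hif3a* (0.0473) passed, as did 1.9% of all genes. With no filter *Hif3a* (adjusted p = 0.0122) and *Hif1a* (0.0304) passed, as did 1.93% of all genes.

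Levels can be compared between genes per length, in TPM. In *Flnc*gKO hearts *Hif1a* (160 ± 16.3 TPM) and *Egln1* (149 ± 52.2 TPM) were highest and overlapped (SD, n = 3). *Egln2* (42.7 TPM), *Egln3* (36.8 ± 16.8 TPM), *Arnt* (34.1 TPM), *Hif1an* (28.5 TPM) and *Vhl* (28.3 TPM) came next, with *Egln3* overlapping the 4 others, and *Epas1* (17.3 ± 13.8 TPM), *Hif3a* (11.6 ± 1.14 TPM) and *Arnt2* (1.88 TPM) had the lowest means. In *Flnc*gKO replicate 3, however, *Epas1* (33.2 TPM) was above *Egln3* (19.7 TPM), *Vhl* (21.8 TPM) and *Hif1an* (29.4 TPM). In control hearts *Hif1a* was highest, at 202 ± 19.4 TPM, followed by *Egln1* at 68.3 ± 1.46, *Egln2* at 44.9, *Arnt* at 31.8 and *Hif1an* at 30.8 TPM (SD, n = 3). The ranges of *Arnt* and *Hif1an* overlapped. *Vhl* (22.4 TPM), *Hif3a* (8.52 TPM) and *Egln3* (5.87 ± 0.837 TPM) followed in that order with no overlap, *Epas1* (11.5 ± 8.46 TPM) overlapped with all 3 of them, and *Arnt2* (2.63 TPM) was lowest. *Egln3* reached 37.4, 53.3 and 19.7 TPM in *Flnc*gKO, against 5.40, 5.37 and 6.84 TPM in control libraries. In *Flnc*gKO replicate 2 it was above *Egln2*, which had 43.1 TPM there.

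The share of each gene in the prolyl hydroxylase RNA is given as a description, with no test. *Egln3* was 15.6 ± 2.98% of the summed TPM of the 3 genes in *Flnc*gKO and 4.93 ± 0.714% in control hearts. *Egln2* was 19.9 ± 5.98% in *Flnc*gKO and 37.7 ± 0.0582% in control hearts, and *Egln1* was 64.5 ± 3.16% in *Flnc*gKO and 57.4 ± 0.771% in control hearts (SD, n = 3 each). The 3 genes summed to 223, 300.02 and 162 TPM in *Flnc*gKO, against 117, 121 and 119 TPM in control libraries. The 3 alpha subunit genes summed to 170, 173 and 224 TPM in *Flnc*gKO and 230, 225 and 209 TPM in control libraries, so the groups overlapped. The ratio of hydroxylase to alpha subunit RNA was 1.31, 1.74 and 0.724 in *Flnc*gKO and 0.510, 0.537 and 0.568 in control libraries. All *Flnc*gKO values were above all control values. The beta subunit genes summed to 35.8 to 36.3 TPM in *Flnc*gKO and 33.1 to 35.7 TPM in control libraries.

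**Figure D4:**
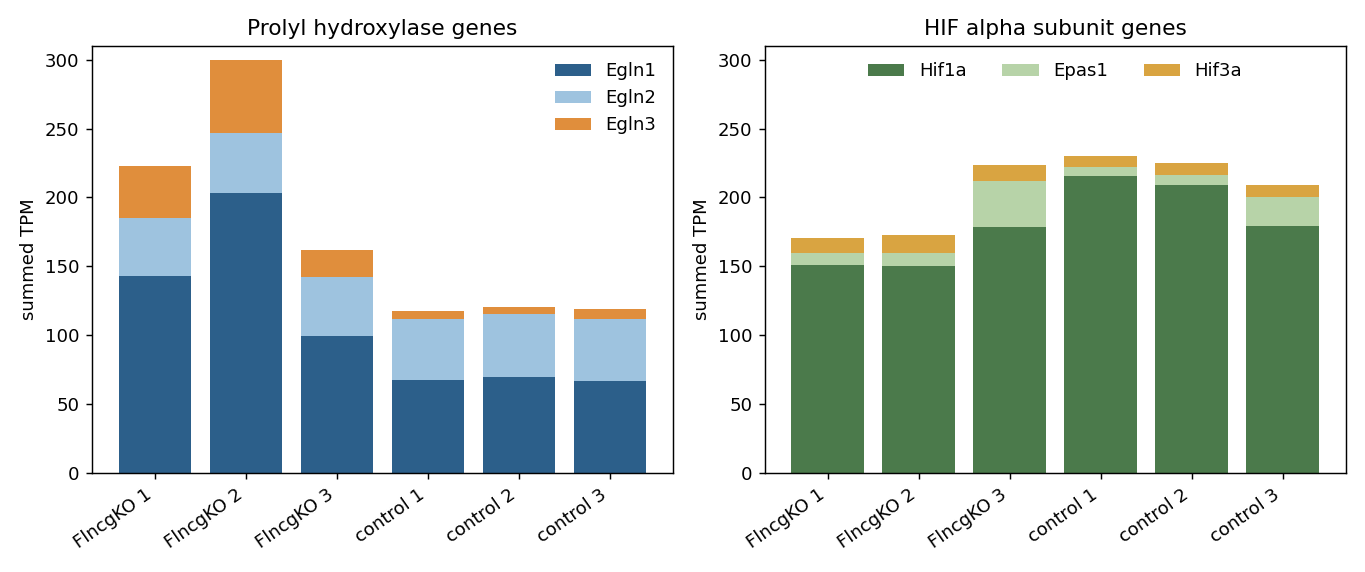
Summed TPM (y axes, stacked by gene, from 0) of the prolyl hydroxylase genes (left) and the HIF alpha subunit genes (right) in each library, *Flnc*gKO left of control. The hydroxylase sum lies between 162 and 300.02 TPM in *Flnc*gKO and between 117 and 121 TPM in control libraries.

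Other genes of the pathway were taken from 3 lists. Of 39 HIF target genes other than the members 38 were tested, all but *Epo*, and of these 5 rose and 0 fell at an adjusted p under 0.05, against 1.06% of all genes higher. The targets that rose were *Slc2a3* (a glucose transporter), *Tfrc* (the transferrin receptor), *Car9* (a carbonic anhydrase), *P4ha1* and *P4ha2* (collagen prolyl hydroxylases). *Slc2a3* was at 843, 1189 and 757 CPM in *Flnc*gKO and 219, 193 and 241 CPM in control libraries (log2 fold change 2.09, SE 0.19, edgeR adjusted p = 0.0310). *Car9* was at 3.40, 9.09 and 5.42 CPM in *Flnc*gKO and 0.595, 0.627 and 0.773 CPM in control libraries (log2 fold change 3.16, SE 0.39, edgeR adjusted p = 0.0321). These 2 had the largest differences of the 5, and *Tfrc*, *P4ha1* and *P4ha2* had log2 fold changes of 0.44, 0.93 and 1.71. Of the 38, 37 were above 0 (the exception was *Cxcr4*, -0.34), 32 did not overlap and all of those were higher (15.7% of all genes), and the median log2 fold change was 0.75. DESeq2 called 29, all higher (8.49% of all genes in either direction). In 29 of the 32 targets that did not overlap, the order of the *Flnc*gKO libraries was 2, 1, 3, as for *Egln1* and *Egln3*, against 36.7% of all genes higher with no overlap. The median shift of the targets was 0.72, 1.02 and 0.45 in *Flnc*gKO and -0.03, -0.03 and 0.03 in control libraries. With a Y-linked covariate, without control replicate 1 and without control replicate 2, edgeR called 0 targets, but these fits called 0, 1 and 1 of all genes. With the covariate the log2 fold changes were 1.92 for *Slc2a3*, 0.86 for *P4ha1* and 2.21 for *Car9*. Without *Flnc*gKO replicate 1 it called 1 target (0.206% of all genes), and 26 when replicate 3 of that group was left out (7.79% of all genes). *Slc2a3* and *Tfrc* were known to be called when the list was made.

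**Figure D5:**
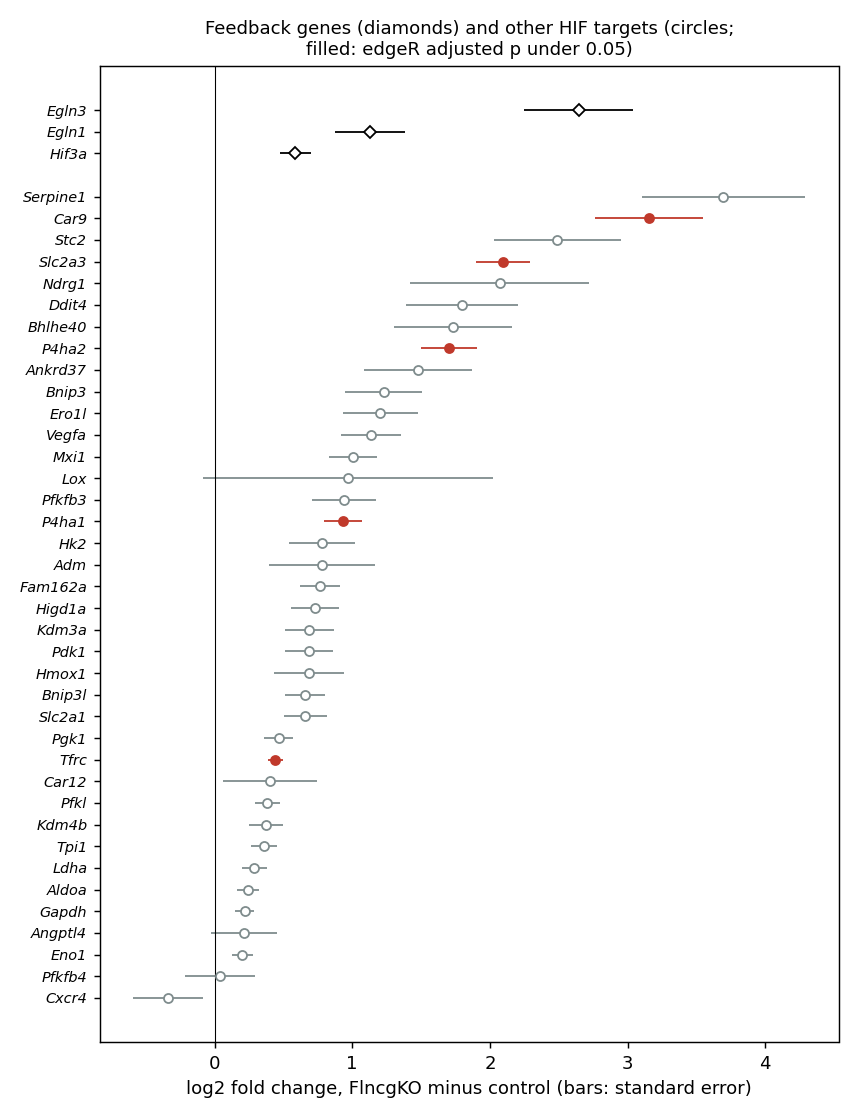
Log2 fold change, *Flnc*gKO minus control (x axis, bars are standard errors), of the feedback genes (diamonds) and the other HIF targets (circles, filled where edgeR's adjusted p was under 0.05). *Egln3* at 2.65 lies between *Slc2a3* at 2.09 and *Car9* at 3.16, and *Cxcr4* lies at -0.34.

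The 28 regulators of HIF tested, which stabilise, degrade, tether or coactivate it, had a median log2 fold change of -0.01. EdgeR called 0 of them (1.31% of all genes). The unadjusted p was under 0.05 for 8 of the 28, against 22.2% of all genes, and DESeq2 called 3, all higher, against 8.49% of all genes. The counts by p or adjusted p lay near those shares. Between the groups 14 of the 28 regulators did not overlap, 8 higher and 6 lower, against 29.7% of all genes. Those with the smallest p were *Ajuba* (log2 fold change 0.31, edgeR adjusted p = 0.0975), which encodes a scaffold of the hydroxylase and VHL complex, *Cited4* (log2 fold change 0.86, adjusted p = 0.102), which encodes an inhibitor of HIF coactivator binding, and *Wsb1* (log2 fold change 0.64, adjusted p = 0.109), which encodes a ligase subunit acting on VHL. Of 7 tested relatives in the bHLH-PAS family, 4 did not overlap between the groups, 2 higher and 2 lower, against 29.7% of all genes. EdgeR called 1 of the 7, against 1.31% of all genes. That was *Npas4*, which encodes a factor known from active neurons, at 37.8, 41.2 and 26.4 CPM in *Flnc*gKO and 14.1, 14.6 and 14.9 CPM in control libraries. *Npas4* rose by 1.27 on the log2 scale (SE 0.16, edgeR adjusted p = 0.0324), a call that was lost with the Y-linked covariate, with protein-coding transcripts only and without any 1 library other than *Flnc*gKO replicate 3. The log2 fold change of *Npas4* was 1.39 with the covariate, in a fit that called 0 of all genes, 1.23 with protein-coding transcripts and 1.14 to 1.44 leaving out 1 library.

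Levels of markers of other cell types follow. The 9 platelet markers summed to 675, 416 and 106 CPM in *Flnc*gKO and 23.5, 19.1 and 28.4 CPM in control libraries, all 9 higher with no overlap (15.7% of all genes). EdgeR called 0 of the 9 (1.31% of all genes), all 9 had an unadjusted p under 0.05 (22.2%) and DESeq2 called 9 (8.49%). The 10 erythroid markers summed to 7995, 7027 and 11286 CPM in *Flnc*gKO and 2929, 2867 and 8207 CPM in control libraries. These groups overlapped through control replicate 3, and edgeR and DESeq2 called 0 of the 10, with 0 at an unadjusted p under 0.05. All 10 erythroid markers nevertheless had a log2 fold change above 0, with a median of 0.87, against 51.6% of all genes above 0. Of the 10, 1 did not overlap between the groups, *Gata1*, which was higher in *Flnc*gKO (log2 fold change 1.35). The 9 macrophage markers summed to 31.8, 24.3 and 32.01 CPM in *Flnc*gKO and 4.68, 2.65 and 12.3 CPM in control libraries. EdgeR called 2 of the 4 tested higher (1.06% of all genes), *Coro1a* and *Itgb2*. Within *Flnc*gKO both took the order replicate 1, 2, 3 from high to low. *Csf1r*, not called, was at 2.19, 1.72 and 15.9 CPM in *Flnc*gKO and 1.46, 0.917 and 5.99 CPM in control libraries. These sums thus mix unlike patterns. The 6 surface ectoderm markers summed to 4.65, 20.2 and 27.9 CPM in *Flnc*gKO and 3.62, 1.98 and 3.09 CPM in control libraries. EdgeR called 1 of the 4 tested, *Dlx3*, higher (1.06% of all genes), and 2 of the 4 were higher with no overlap (15.7% of all genes). *Flnc*gKO replicate 1 was highest for platelet markers and replicate 2 for *Egln1* and *Egln3*. Their part in the values of the members was not tested.

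By the smallest root mean square difference between centred log2 CPM profiles over the 6 libraries, among 14333 genes, *Egln1* was most like *Atf3* (0.0444), which encodes a transcription factor induced by stress, *Gm37090* (0.0503) and *Ero1l* (0.0605), which encodes an oxidase of the endoplasmic reticulum. *Egln3* was most like *Kbtbd11* (0.147), *Pdgfb* (0.202), which encodes a growth factor, and *1700001L05Rik* (0.212), and *Hif3a* was most like *Ppargc1b* (0.0386), *Rnf130* (0.0638) and *Glipr2* (0.0688). Of these 9 genes, *Pdgfb* passed edgeR's test (adjusted p = 0.0310).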

How the data were processed

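RNA-seq data covered 3 *Flnc*gKO and 3 control libraries of E9.5 hearts. Estimated counts and TPM per transcript were deposited as the authors obtained them from salmon. The study names GENCODE transcripts on GRCm38.p6 and DESeq2 1.22.2, and the salmon version is not given in the sources used here. Transcripts were joined to genes through GENCODE M21. Those with no gene there held 0.108% to 0.131% of the estimated counts and were left out. Counts of a gene's transcripts were added up and rounded. Genes were tested with edgeR 4.0.16 in R 4.3.3 (robust quasi-likelihood test after TMM scaling, with low genes removed by filterByExpr at 10 counts, Benjamini-Hochberg adjustment and a threshold of 0.05), which was tested on simulated data, and with DESeq2 1.42.0 as the alternative. The simulated counts were given the same dispersion in both groups, so they do not show how the test behaves where the groups spread unequally. The authors' TPM were summed per gene to compare levels between genes, with no test. An exact permutation test of 3 against 3 libraries cannot go below p = 0.1, so none is given.

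The genes named are all 10 members, of each pathway list every member past the threshold where 5 or fewer pass, or the 3 with the smallest p where none passes, the 3 genes with the most similar profile to each feedback gene (at least 1 mean CPM), *Flnc* and the sum of 4 Y-linked genes. *Cxcr4*, *Prl3d1*, *Ascl2*, *Emcn*, *Dlx3*, *Coro1a*, *Itgb2*, *Csf1r*, *Gata1*, *Myh6*, *Myh7*, *Tnnt2* and the profiles like *Epas1* were chosen after their values were seen. Members and lists were chosen with earlier results of these data known. Alternatives were RLE scaling, total counts, no filter, 10 counts in every library, length offsets, protein-coding transcripts, a replicate block, a Y-linked covariate, leaving out each library and DESeq2. Chosen after seeing the data were leaving out both libraries numbered 3 and DESeq2 without each library.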

Additional observations from a re-analysis of the deposited data

How the results depend on the processing

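The number of members called by edgeR, 0 of 10, was also 0 with RLE scaling, total counts, length offsets, protein-coding transcripts and the Y-linked covariate. It was 2 with no filter (*Hif3a* and *Hif1a*), 2 with 10 counts in every library (*Egln3* and *Hif3a*), 4 with DESeq2, and 5 with neither library numbered 3 (*Egln1*, *Egln3*, *Hif1a*, *Epas1* and *Vhl*). These counts rest on fits that called 1.31% of all genes as reported, 1.93% with no filter, 1.9% with 10 counts in every library, 8.49% with DESeq2, 7.69% with neither library numbered 3, 0 genes with the Y-linked covariate and 1 gene without control replicate 1 or 2. Leaving out 1 library at a time gave 0 to 5, with 5 without *Flnc*gKO replicate 3 and 0 without any other. DESeq2 without 1 library called 4 without *Flnc*gKO replicate 1 or 2, 5 without replicate 3, and 2, 3 and 4 without control replicates 1, 2 and 3. Of all genes, these DESeq2 fits called 7.23%, 4.25% and 11.6% without *Flnc*gKO replicates 1, 2 and 3. Without control replicates 1, 2 and 3 they called 4.08%, 4.17% and 7.86%. Called HIF targets, 5, were 0 with the Y-linked covariate, 29 with DESeq2, 30 with neither library numbered 3 and 0 to 26 leaving out 1 library (0 without control replicate 1 or 2, 1 without *Flnc*gKO replicate 1, 26 without *Flnc*gKO replicate 3). Called regulators, 0, were 3 with DESeq2, 1 with neither library numbered 3 and 0 to 1 leaving out 1 library (1 without *Flnc*gKO replicate 3 or control replicate 3). The call of *Npas4* among bHLH-PAS relatives was lost (0) with protein-coding transcripts, with the Y-linked covariate and without any library but *Flnc*gKO replicate 3 (0 to 1). *Epas1* reversed in some fits, with a log2 fold change of -0.50 with the Y-linked covariate, -0.35 with DESeq2 without *Flnc*gKO replicate 3, and between -0.35 and 1.38 leaving out 1 library with edgeR. The Y-linked level partly followed the group. Fits without *Flnc*gKO replicate 3 alone keep control replicate 3, at 80.8 CPM of *Epas1*. With the replicate block *Epas1* was at 0.53, and it was also positive with neither library numbered 3. The genes most like it, *Myof*, *Map6* and *Ccdc155*, had -0.28, -0.25 and -0.58 with the Y-linked covariate, and -0.28 to 1.44, -0.14 to 1.42 and -0.62 to 1.20 leaving out 1 library. The causes were not tested. Feedback minus other members stayed between 0.90 and 1.52, but as a difference of medians it does not follow each gene. With the Y-linked covariate the log2 fold changes were 1.06 for *Egln1*, 2.67 for *Egln3* and 0.31 for *Hif3a*, against 1.13, 2.65 and 0.59 as reported. *Hif3a* was at 0.43 with length offsets.

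With the replicate block, edgeR called 2 members, *Hif3a* (adjusted p = 0.0192) and *Epas1* (0.0165, log2 fold change 0.53), and 7 HIF targets, in a fit that called 3.94% of all genes. The labels do not say that equal numbers mark a litter, and same-numbered deviations correlated at 0.0428, 0.571 and 0.605 over genes, so the first pair fell short and the libraries were treated as unpaired. Each *Flnc*gKO library correlated best with the control library of its own number. Control replicate 1 correlated best with *Flnc*gKO replicate 2 (0.192).

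With 3 libraries a group, the spread between libraries limits the precision: *Egln1* had an SD of 88.3 CPM in *Flnc*gKO and 2.48 CPM in control hearts.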

Other observations

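The profile of *Epas1* was looked up after its values were seen. The genes most like it over the 6 libraries, by the same measure, were *Myof* (0.120), at 12.4, 10.7 and 37.9 CPM in *Flnc*gKO and 6.86, 8.11 and 27.2 CPM in control libraries, *Map6* (0.163) and *Ccdc155* (0.164). All 3 were highest in the libraries numbered 3 of both groups.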
